A study of Mus musculus with 4 samples.

Results

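The cells described here are mouse colon epithelial cells in which at least 2 of the 4 transcripts Cxcl5, Nos2, Duoxa2 and Ly6g were detected. Of 13158 cells kept (1000 gene UMIs and 250 genes or more, mitochondrial UMIs up to 25%), 423 met this rule, 267 in batch 1 and 156 in batch 2. A UMI is a molecular tag that counts each captured transcript once. The rule also asked for at least 3 UMIs of Epcam and Krt8, and it set upper limits on goblet (Muc2), enteroendocrine (Chga, Chgb), cycling (Mki67, Top2a) and leukocyte transcripts (Ptprc, Csf3r, Cxcr2, Retnlg, S100a8, S100a9). Cells that passed all of this whatever their count of the 4 genes are called gate cells, of which there were 2697 and 1735. The 423 cells made up 9.90% and 8.99% of them. A further 1281 gate cells had exactly 1 of the 4 genes, and 2728 had 0.

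The working name of these cells was inflamed colonocytes, with Cxcl5, Nos2, Duoxa2, Ly6g and Clca4b as markers. The data matched the word colonocyte: the 4 epithelial markers that the rule did not use (Krt18, Krt19, Cdh1 and Vil1) and all 7 absorptive colonocyte markers were detected in at least 25% of the cells in both batches. By this measure 5 of 7 goblet markers were detected as well, so it does not single out colonocytes. Inflammation could not be read from the markers in the same way. Of the 5 markers, 4 are the rule itself. The remaining marker, Clca4b, was found in 68.5% and 37.2% of the cells, against 6.85% and 4.88% of gate cells with none of the rule genes. It was proposed from these data, so it is not independent evidence. Genes outside the markers were mixed. Lcn2, a siderophore-binding protein that many inflamed epithelia make, had 3 UMIs in the cells of batch 1 and 2 in those of batch 2. Of 19 NF-kB targets and feedback genes, 12 were higher and 3 lower in the absorptive comparison below. Because the markers cannot decide the word inflamed, the cells are called Duoxa2/Ly6g colonocytes, after the pair of rule genes found together most often.

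The libraries came from colon of C57/BL6J mice in 4 conditions: wild type and JUP-KO, each without treatment and with dextran sulfate sodium (DSS), a polymer that damages the colonic epithelium. JUP-KO mice lack plakoglobin, the product of Jup, which links cadherins to the cytoskeleton in desmosomes and adherens junctions. Which cells lack it, how old the mice were and whether the batches come from separate mice are not stated in these sources. In each batch the conditions were marked with hashtag antibodies, mixed, sorted for viability and loaded together, with 23000 to 25000 cells loaded and about 14000 targeted. The antibody features are named Ctrl_WT, Ctrl_DSS, TG_WT and TG_DSS. Going by the names, Ctrl_DSS marks the wild type with DSS and TG_WT the JUP-KO without it. Going by the antibody numbers of the protocol, Ctrl_DSS marks the JUP-KO without DSS and TG_WT the wild type with it, and the labels do not settle which holds. Under either reading Ctrl_WT marks the wild type without DSS and TG_DSS the JUP-KO with it. The libraries held 133919905 and 95408149 gene UMIs, and 13 cell barcodes occurred in both, 0 of them among the 423 cells.

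Colonocytes line the colon surface and take up water, salt and short-chain fatty acids, which they burn by beta-oxidation. During injury or infection some switch on a defence programme. DUOX2 with its maturation factor DUOXA2 releases hydrogen peroxide into the lumen, inducible nitric oxide synthase (Nos2) makes nitric oxide, and CXCL5 draws neutrophils through CXCR2. Ly6g is known as the surface marker of mouse neutrophils, and it belongs to a cluster of small GPI-anchored proteins on chromosome 15 that includes Ly6c1 and Ly6a.

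The positions of the genes that the results turn on are those of mm10 in GENCODE M21, counted from 1. Duoxa2 lies on chromosome 2 at 122298900 to 122302885 (plus strand), 450 bases from the start of Duox2 (122279247 to 122298449, minus strand), so the pair are transcribed away from each other. Ly6g lies on chromosome 15 at 75155240 to 75159126 (plus strand) and Ly6c1 at 75044018 to 75048830 (minus strand). Cxcl5 lies on chromosome 5 at 90759360 to 90761624, Nos2 on chromosome 11 at 78920787 to 78960254, and Clca4b on chromosome 3 at 144910921 to 144932529. Each of these is protein-coding. Below are the bases upstream of the transcription start of Duoxa2 and of the Ly6 pair, which are shown because Ly6g chose the cells and Ly6c1 was among the genes that differed most beside it. They are RefSeq sequences on GRCm38.p6, 5′ to 3′ on the gene's strand. Capitals mark TATAAA in Duoxa2, and in the Ly6 pair the runs of at least 20 bases that are identical between both windows.
Duoxa2, chr2:122298650-122298899 (+): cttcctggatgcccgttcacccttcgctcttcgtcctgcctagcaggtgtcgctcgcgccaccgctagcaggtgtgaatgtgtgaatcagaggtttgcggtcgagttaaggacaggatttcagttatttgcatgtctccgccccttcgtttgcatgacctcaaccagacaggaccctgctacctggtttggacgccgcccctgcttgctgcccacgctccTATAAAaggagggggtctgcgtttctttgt
Ly6g, chr15:75155011-75155239 (+): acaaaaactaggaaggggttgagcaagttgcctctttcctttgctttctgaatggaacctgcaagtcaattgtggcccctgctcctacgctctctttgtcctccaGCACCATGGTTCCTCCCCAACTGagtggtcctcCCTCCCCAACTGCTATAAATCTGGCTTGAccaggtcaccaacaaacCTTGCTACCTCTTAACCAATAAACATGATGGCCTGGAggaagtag
Ly6c1, chr15:75048838-75049087 (-): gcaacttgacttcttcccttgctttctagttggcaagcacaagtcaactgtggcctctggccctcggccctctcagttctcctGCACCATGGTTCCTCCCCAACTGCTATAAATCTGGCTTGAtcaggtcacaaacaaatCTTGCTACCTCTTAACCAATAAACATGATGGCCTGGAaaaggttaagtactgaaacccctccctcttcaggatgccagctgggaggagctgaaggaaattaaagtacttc

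The Ly6g and Ly6c1 windows share 150 of 177 aligned bases (84.7%), with 89 bases of Ly6g inside shared runs and a TATAAA within one of them. Such likeness was not particular to this pair. The Ly6f window shared 139 of 157 aligned bases with that of Ly6g (88.5%), and the Ly6c2 window 115 of 143 (80.4%). Neither Ly6f nor Ly6c2 was among the genes tested below, and Ly6a, Ly6d and Ly6m had no window to compare. The Duoxa2 TATAAA begins 30 bases before the window's end. TATAAA on either strand occurred in 12.4% of 32851 windows of 250 upstream bases. The STAT motif TTCNNNGAA (7.02% of windows, both strands) was searched in the windows of Duoxa2, Clca4b, Ly6g, Ly6c1 and Saa1, and these letters were not found there. The Ly6g and Ly6c1 transcripts share no run longer than 42 bases. Ly6c1 and Ly6c2 share one of 124, Clca4b and its neighbour Clca4a one of 168, and Saa1 and Saa2 one of 179. Reads of Ly6c1, Clca4b and Saa1 could thus be split between copies.

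The 4 rule genes chose the cells, so their levels are a description. Levels are given as CPM, the gene's share of all gene UMIs of a group's cells within a batch, scaled to a common total. Duoxa2 stood at 299 CPM in batch 1 and 195 CPM in batch 2, and was found in 86.9% and 82.1% of the cells. Ly6g stood at 1086 and 914 CPM, in 82.0% and 91.0% of the cells. These 2 genes were thus found in most cells of both batches. Cxcl5 was found in 36.3% and 35.3% of the cells, at 305 and 116 CPM. Nos2 was found in 50.2% and 23.1%, at 188 and 58.4 CPM. Both Cxcl5 and Nos2 were carried by a minority of the cells in batch 2, and at lower levels than in batch 1. Their Cxcl5 was concentrated in few cells, with up to 168 UMIs in a single cell of batch 1.

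Duoxa2 with Ly6g alone was the most frequent combination, in 86 cells (32.2%) of batch 1 and 77 cells (49.4%) of batch 2. All 4 genes were found together in 42 cells (15.7%) and in 7 cells (4.49%). Among all gate cells, those with Cxcl5 had Ly6g in 83.6% and 75.4% of cases, against 22.4% and 30.8% of gate cells without Cxcl5. Gate cells with Nos2 had Duoxa2 in 70.2% and 72.3%, against 12.5% and 13.3% without. In both pairs each gene was more frequent where the other was found, in either library. For Duoxa2 and Ly6g, after which the cells are named, the contrast was smaller. Gate cells with Duoxa2 had Ly6g in 42.3% and 44.4% of cases, against 21.5% and 30.4% without Duoxa2. Median depths per cell were of like size (12561 and 14070 UMIs in Duoxa2/Ly6g colonocytes, 15183 and 13695 in gate cells with 0 of 4 genes).

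The rule genes were also looked for in other cells, since free RNA in the suspension puts foreign UMIs into droplets. In neutrophils, named from S100a8, S100a9 and other markers, Ly6g stood at 144 and 108 CPM and was found in 23.9% and 24.2% of cells, at a median of 2762.5 and 3301 UMIs per cell. Fibroblasts held Cxcl5 at 152 and 81.2 CPM, in 13.5% and 8.68% of cells. Macrophages held Nos2 at 28.8 and 17.3 CPM, and goblet cells held Duoxa2 at 19.2 and 23.3 CPM. In each case the Duoxa2/Ly6g colonocytes were higher. The rule favours this, as it chose cells with UMIs of these genes, but it sets no level against other cell types. Barcodes of at most 100 UMIs, taken as free RNA, held Ly6g at 77.0 and 87.1 CPM, Duoxa2 at 26.4 and 19.2 CPM, Nos2 at 12.3 and 5.71 CPM and Cxcl5 at 9.83 and 7.39 CPM. Per 1000 UMIs of S100a8 and S100a9 there were 15270 and 9827 UMIs of Ly6g in Duoxa2/Ly6g colonocytes and 0.869 and 0.715 in neutrophils, although the rule's limit on S100a8 and S100a9 bears on this ratio. Lcn2 went the other way, with 2795 and 2318 CPM in neutrophils and 0.768 and 0.805 CPM in Duoxa2/Ly6g colonocytes.

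**Figure D1:**
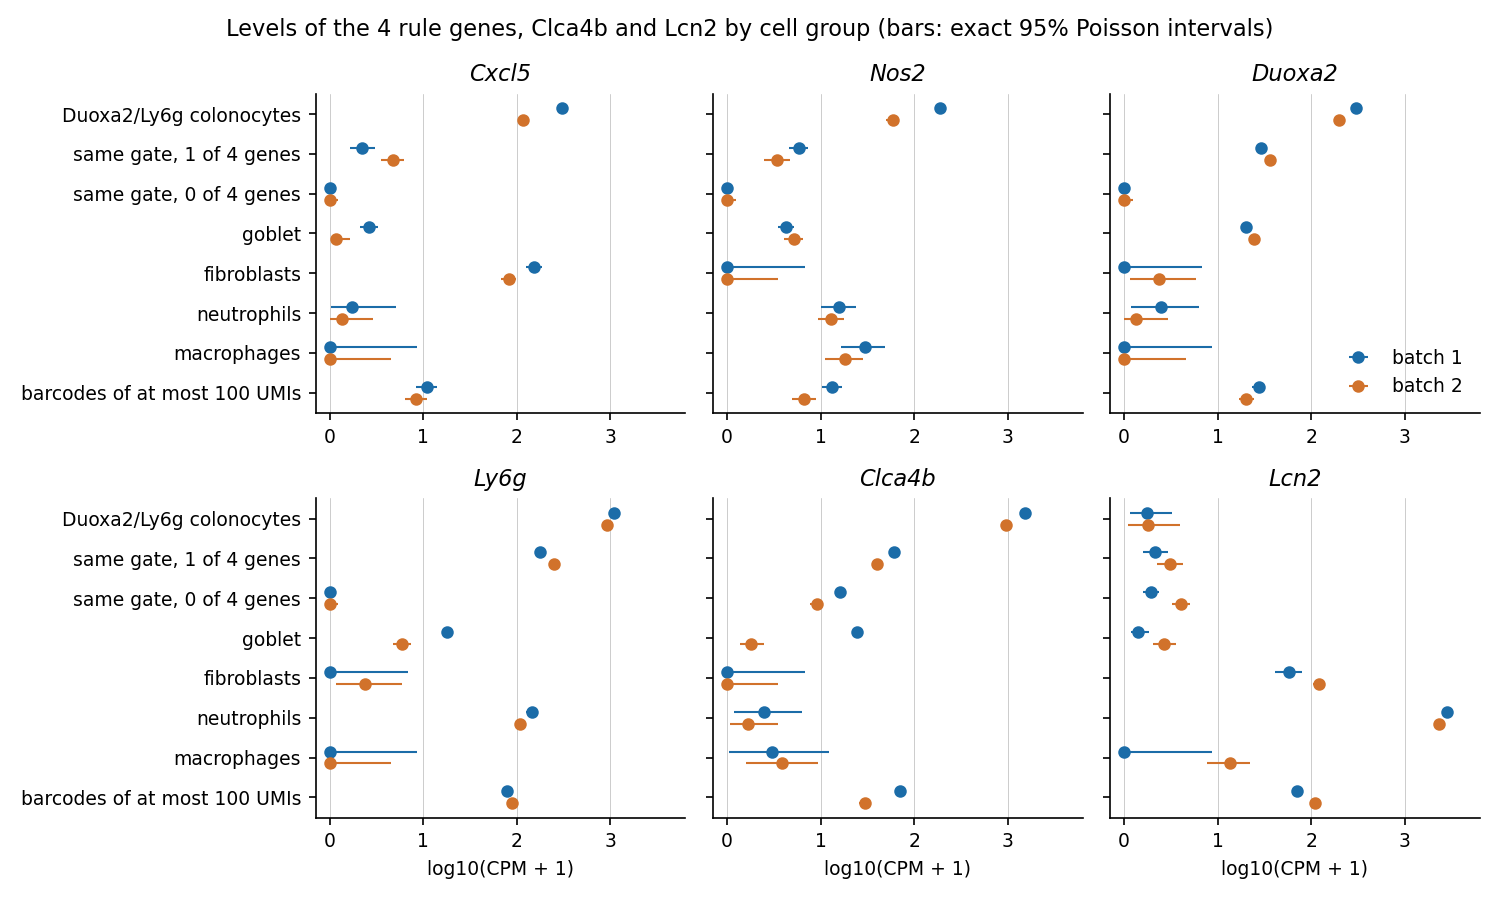
CPM on a log10(CPM + 1) scale (x axis) of Cxcl5, Nos2, Duoxa2, Ly6g, Clca4b and Lcn2 in 8 groups of cells or barcodes (y axis), with 1 point per batch and exact Poisson intervals for counting error only. The Duoxa2/Ly6g colonocytes hold the highest level of the first 5 genes in both batches. The choice of cells favours this for the 4 rule genes. Lcn2 lies with the neutrophils.

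Markers of most other cell types were low, and those of goblet cells were present. Of 10 neutrophil markers, Csf3r, Cxcr2 and Retnlg were at 0 by the rule, and the list summed to 80.6 and 99.1 CPM, against 58.7 and 78.7 CPM in gate cells with 0 of 4 genes. S100a9 was found in 34.8% and 51.3% of Duoxa2/Ly6g colonocytes. The macrophage list summed to 6.65 and 28.6 CPM, the T and NK list to 0.512 and 2.01 CPM and the fibroblast list to 5.89 and 4.03 CPM. Goblet markers summed to 331 and 639 CPM, against 673 and 700 CPM in gate cells with 0 of 4 genes. Agr2 was lower, at 106 and 94.2 against 459 and 379 CPM. Zg16, a lectin of goblet cell mucus, was higher in both batches, at 113 and 346 against 78.5 and 149 CPM, and was found in 65.5% and 76.3% of the Duoxa2/Ly6g colonocytes. Tff3, a trefoil peptide, was higher as well (42.2 and 80.9 against 28.4 and 43.5 CPM), and the part of goblet transcripts in the results was not tested. Stem and transit-amplifying markers summed to 32.5 and 20.5 CPM, against 216 and 110 CPM. Immunoglobulin and other B and plasma cell markers summed to 6.14 and 42.7 CPM, against 639 and 2584 CPM. The absorptive list summed to 17897 and 28006 CPM, against 21368 and 30582 CPM. Car1 was lower, at 9744 and 17228 against 18848 and 26029 CPM, while the other absorptive markers were higher in both batches.

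Clca4b and Duox2 were not part of the rule, although Clca4b was among the markers proposed from these data. Clca4b encodes a chloride channel accessory protein of the colonocyte surface. In gate cells of batch 1 its level was 15.2 CPM with 0 rule genes detected, 60.1 with 1, 706 with 2, 2018 with 3 and 4006 with all 4. In batch 2 it was 8.14, 39.4, 546, 1731 and 3009 CPM in the same order. Duox2, the oxidase that DUOXA2 matures, went from 9.62 to 30.5, 175, 328 and 399 CPM in batch 1 and from 11.1 to 29.3, 133, 239 and 446 CPM in batch 2. In Clca4b and Duox2 the cells just outside the rule (1 gene) were thus nearer to those with 0 genes than to those just inside it (2 genes), which did not hold for every gene, as the absorptive cells below show for Saa1. The groups hold 1723, 707, 161, 64 and 42 cells in batch 1 and 1005, 574, 114, 35 and 7 in batch 2.

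Duoxa2/Ly6g colonocytes were not uniform. Those with Nos2 held Clca4b at 2508 and 1376 CPM, and those without it at 862 and 822 CPM. Duox2 stood at 466 and 322 CPM in those with Nos2 and at 99.6 and 127 CPM in those without. Both genes were higher in the Nos2 cells of each batch. Cells with Cxcl5 held Clca4b at 2428 and 1175 CPM against 979 and 833 CPM without, while Duox2 was lower in cells with Cxcl5 in both batches, at 235 against 251 CPM and 126 against 202 CPM. In batch 1 the counting intervals of that Duox2 difference overlapped. The rule bears on these splits, since a cell without Cxcl5 must hold at least 2 of the other rule genes. Most often these were Duoxa2 and Ly6g. Among all gate cells, Duoxa2 was more frequent with Cxcl5 (65.5% and 41.5%) than without it (14.1% and 13.9%). Clca4b itself was found in 68.5% of the cells of batch 1 and 37.2% of those of batch 2.

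Over the 2697 and 1735 gate cells, the genes whose level was most like the summed level of the 4 rule genes were Saa1 (Pearson r 0.63 and 0.61 in batches 1 and 2), Sprr2a3 (0.60 and 0.52), Car4 (0.61 and 0.50), Clca4b (0.59 and 0.42) and Ly6c1 (0.59 and 0.39). Ly6a, Litaf, Csta1, Muc13 and Tgm3 followed. These correlations across cells of 1 library share depth and free RNA and are a description.

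To ask which other transcripts differed, raw counts of Duoxa2/Ly6g colonocytes and of comparison cells were summed in each batch and tested with edgeR's quasi-likelihood test, with batch as a term and Benjamini-Hochberg adjustment over all genes. With 2 batches the p-values measure only the spread between these 2 batches, which may be technical. Against all 2728 gate cells with 0 of 4 genes, 2454 of 12645 genes were higher (19.4%) and 2115 lower (16.7%), 36.1% in either direction. The falls there were led by Gcg (log2 fold change -7.21), Igkc (-6.05), Igha (-5.74) and Jchain (-5.31), whose UMIs lay in few comparison cells: 1 cell held 99.1% and 64.6% of the Igkc UMIs of batches 1 and 2. With comparison cells matched on depth, Igha stood at -0.30 and Jchain at -0.11 and neither passed the test. Slc12a2, a crypt transporter, was also lower (22.3 against 153 CPM, 13.3 against 79.1 CPM; -2.38), as was Cldn15 (-2.75).

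The comparison used below is narrower. Both sides were limited to absorptive cells, with at least 5 UMIs over Car1, Slc26a3, Aqp8 and Krt20, which left 409 of the 423 cells (255 and 154) against 1970 (1144 and 826). Of 12005 genes tested, 2007 were higher (16.7%) and 1766 lower (14.7%) in the Duoxa2/Ly6g colonocytes, 31.4% in either direction, and 2007 and 1762 of them had the same sign in both batches. Of the 12 largest rises 11 were shared with the wider comparison, and of the 12 largest falls 5 were. Scaling matters for the balance: 53.2% of the calls were higher with TMM scaling, 31.5% with library totals alone and 68.1% with DESeq2, and the median log2 fold change over all genes was -0.07 with TMM and -0.28 with library totals.

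Surface transcripts such as Car4 and Tgm3 were among those that were higher. A second comparison, added after the data were seen, therefore kept only cells with at least 5 UMIs over the surface genes Aqp8 and Clca4a on both sides (191 and 115 Duoxa2/Ly6g colonocytes against 266 and 265 cells). It called 672 genes higher (7.02%) and 531 lower (5.55%) of 9568. Its values are given as those among surface cells. Of 113 genes looked at by name, 100 had passed and could be tested there: each of these 100 kept its direction and 75 passed again. Agreement in direction was likely beforehand, since these genes had passed in the absorptive comparison and the cells come from the same libraries. The same share over all genes that passed was not counted.

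**Figure D2:**
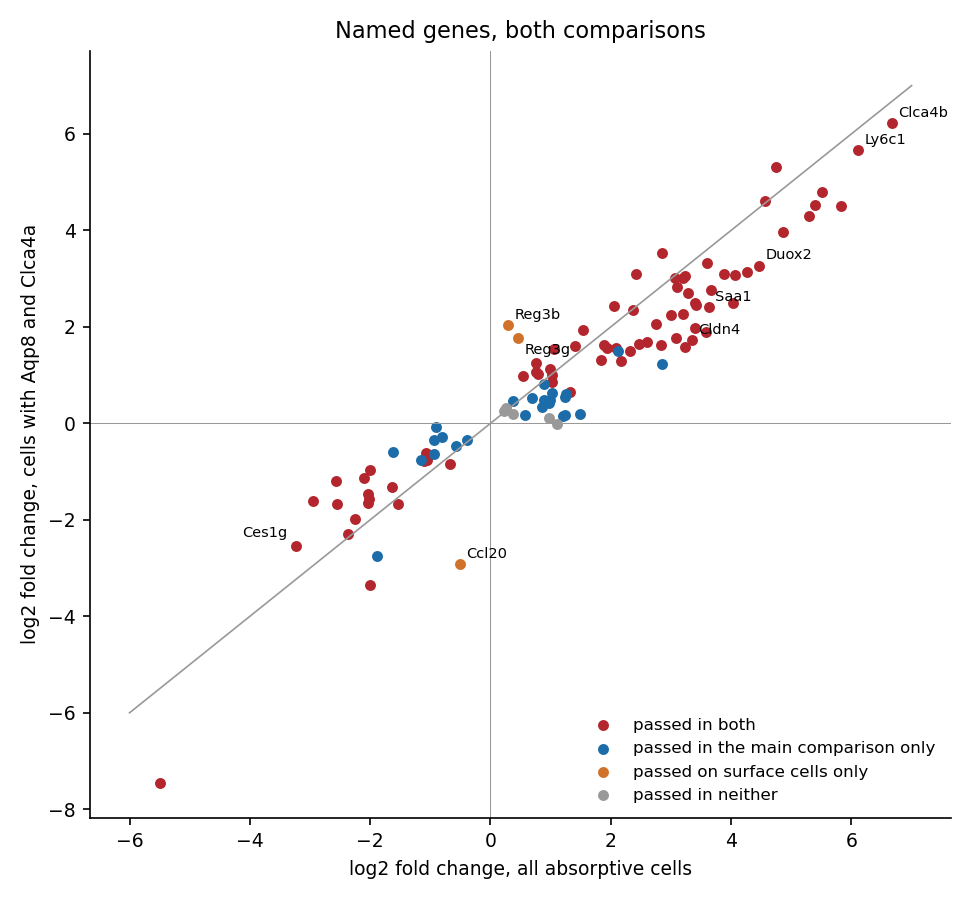
Log2 fold change of the genes looked at by name in all absorptive cells (x axis) and in cells with Aqp8 and Clca4a (y axis), 1 point per gene, coloured by whether the adjusted p was under 0.05 in both, 1 or neither, with the line of equal values. Most rises lie below that line; Clca4b (6.67 and 6.22) and Ly6c1 (6.11 and 5.66) lie near it, while Reg3b, Reg3g and, as a fall, Ccl20 passed only among surface cells.

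The largest rise among absorptive cells was that of Clca4b, from 19.5 to 1522 CPM in batch 1 and from 9.55 to 970 CPM in batch 2 (log2 6.67, SE 0.15, edgeR adjusted p = 1.20e-08). Since Clca4b was one of the proposed markers, that test is not independent evidence. Ly6c1 stood at 505 against 6.27 CPM and 323 against 7.5 CPM (log2 6.11, SE 0.21, edgeR adjusted p = 1.70e-07; 5.66 among surface cells). Tac1, the precursor of substance P, stood at 136 against 1.66 CPM and 100.3 against 4.77 CPM (log2 5.5, SE 0.36). Wfdc18, a small secreted whey acidic protein, stood at 295 against 9.70 CPM and 604 against 16 CPM (log2 5.30). In none of these did the groups overlap between batches. That is largely set by the choice of the largest rises with the same sign in both batches, and the share over all tested genes was not counted.

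Further rises were those of Marcksl1 (log2 4.86), the cystatin Csta1 (4.56), the potassium-proton pump Atp12a (4.27), the annexin Anxa8 (4.03; 3.27 without batch 1), Trim15 (3.67; 3.00 without batch 1) and the acute-phase protein Saa1 (3.63). Saa1 stood at 6025 against 549 CPM and at 7155 against 684 CPM (SE 0.11, edgeR adjusted p = 7.22e-08), and its rise was 2.40 among surface cells. Ly6d (5.82) rested on few cells: it was found in 18.8% and 7.14% of Duoxa2/Ly6g colonocytes, and 1 cell held 69.5% of its UMIs in batch 2.

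The largest falls were those of Gcg and Fabp5, which again lay in few comparison cells. Gcg, the proglucagon gene of enteroendocrine cells, had 4 and 1 UMIs against 3047 and 1338, with 55.2% and 99.4% of the latter in 1 cell. Fabp5 had 10 and 2 UMIs against 1008 and 2372, with 86.9% and 55.7% in 1 cell. The other falls were spread over many cells and were led by metabolic enzymes. Ces1g, a carboxylesterase, fell from 142 to 14.7 CPM and from 123 to 9.40 CPM (log2 -3.23, SE 0.17, edgeR adjusted p = 3.30e-06). It was found in 7.45% and 7.79% of Duoxa2/Ly6g colonocytes and in 46.1% and 39.8% of the comparison cells. The sulfotransferase Sult1a1 (-2.95), the glutathione transferase Gstm1 (-2.57), Prap1 (-2.38), the pyrophosphate transporter Ank (-2.10), the carbonyl reductase Cbr3 (-2.04), the ubiquitin ligase Rnf186 (-2.04), the kinase Prkg2 (-2.03) and the cytochrome P450 Cyp2c68 (-2.01) also fell, each in both batches and also among surface cells.

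**Figure D3:**
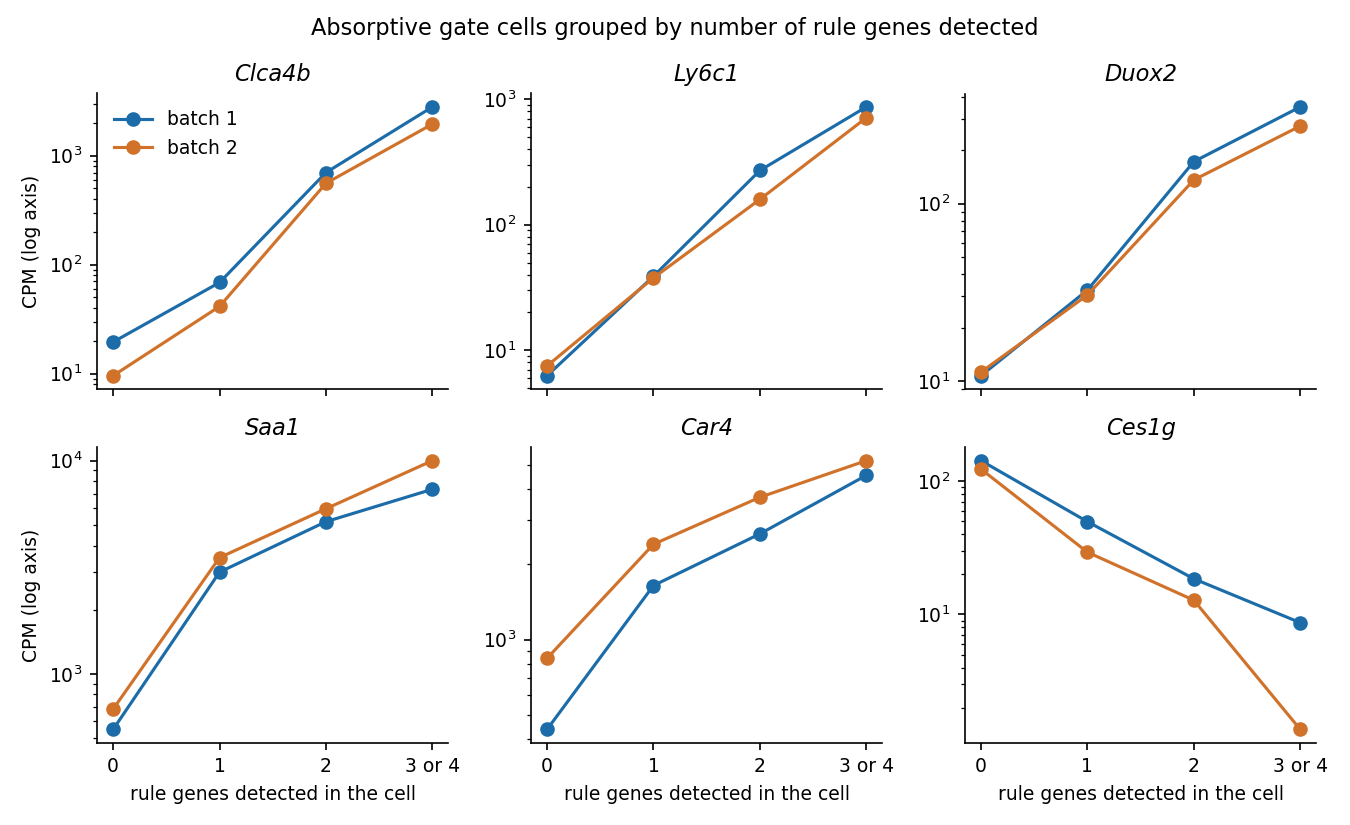
CPM on a log axis (y axis) of Clca4b, Ly6c1, Duox2, Saa1, Car4 and Ces1g in absorptive gate cells with 0, 1, 2 and 3 or 4 rule genes detected (x axis), 1 line per batch. The first 5 genes step up and Ces1g steps down at each step in both batches, and Saa1 and Car4 take their largest step from 0 to 1 gene.

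These differences were graded. In absorptive cells with 0, 1, 2 and 3 or 4 rule genes, Saa1 stood at 549, 3001, 5174 and 7344 CPM in batch 1 and at 684, 3510, 5951 and 10006 CPM in batch 2. The Saa1 level with 1 gene was nearer to that with 2 genes than to that with 0 in both batches. Ly6c1 stood at 6.27, 38.8, 271 and 869 CPM and at 7.5, 37.7, 159 and 712 CPM. Ces1g stood at 142, 49.6, 18.5 and 8.68 CPM and at 123, 29.3, 12.8 and 1.38 CPM. Tgm3, a transglutaminase of the surface, was not graded in this way: it reached 997 and 1058 CPM with 1 gene (167 and 231 CPM with 0) and stood at 671 and 1112 CPM with 3 or 4. The groups hold 1144, 618, 154 and 101 cells in batch 1 and 826, 545, 112 and 42 in batch 2.

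The 22 gene lists below were grouped by role. For each, the count of tested genes that passed in each direction is to be read against the share of all genes under the same setting. These shares were 16.7% higher and 14.7% lower in the absorptive comparison, 7.02% and 5.55% among surface cells, 9.97% and 4.66% with DESeq2, and 11.9% and 26.0% with library totals. Genes of the rule and of the absorptive limit are left out of the counts. Clca4a, which helped choose the surface cells, was kept in the surface and brush border list. Genes named below without a value were picked from those that passed after their values were seen.

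Of 8 oxidant genes tested, 3 rose and 2 fell, and with library totals alone 2 rose and 3 fell. Duox2, which makes hydrogen peroxide, rose from 10.7 to 243 CPM and from 11.2 to 177 CPM (log2 4.47, SE 0.16, edgeR adjusted p = 2.31e-07; 3.27 among surface cells). Gpx2, a glutathione peroxidase of the gut, rose by a log2 of 1.54 (295 to 689 and 178 to 482 CPM). Noxo1, the organiser of the other gut oxidase NOX1, rose by 0.53, a call lost with library totals (0.32) and with DESeq2 (adjusted p = 0.0933). Arg2, which competes with nitric oxide synthase for arginine, fell (34.0 to 9.68 and 35.6 to 11 CPM; log2 -1.54). Among surface cells 4 of 8 rose and 1 fell.

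Of 10 chemokines, 6 rose and 1 fell (6 and 2 among surface cells), and with DESeq2 3 rose. Cxcl16, a membrane-bound chemokine for CXCR6, rose from 3.94 to 43.2 CPM and from 6.37 to 49.1 CPM (log2 3.41, SE 0.19, edgeR adjusted p = 4.88e-06) and was found in 34.9% and 35.1% of the cells. The CXCR2 ligand Cxcl3 (log2 3.28) lay at 21.7 against 0.721 CPM in batch 1 and 3.68 against 2.27 CPM in batch 2, with 56.6% of the batch 1 UMIs in 1 cell. Its log2 was 0.95 without batch 1, and its call was lost with DESeq2 (adjusted p = 0.213). The interferon-induced CXCR3 ligands Cxcl9 (2.85) and Cxcl10 (2.05) were found in at most 8.44% of the cells, and 1 cell held 69.0% and 78.1% of the Cxcl9 UMIs. Ccl20 did not pass (log2 -0.50, edgeR adjusted p = 0.697) and differed in sign between batches, at 36.1 against 13.6 CPM and 5.72 against 97.8 CPM. Among surface cells, however, Ccl20 fell (-2.92, edgeR adjusted p = 0.0126).

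Of 16 antimicrobial and acute-phase genes, 9 rose and 2 fell, and 12 and 1 of 14 did among surface cells. After Saa1 came Plet1, a GPI-anchored protein of the epithelial surface (10.3 to 276 CPM and 9.02 to 40.1 CPM; log2 3.89), Lrg1, a leucine-rich acute-phase protein (1.55 to 38.2 CPM and 1.14 to 4.91 CPM; 4.07), and lactoferrin (Ltf), with 36 and 12 UMIs against 8 and 2 (4.74). The C-type lectins Reg3b and Reg3g were abundant on both sides. Reg3b stood at 9094 against 8059 CPM and 3911 against 3934 CPM (log2 0.30, edgeR adjusted p = 0.0575), but among surface cells its log2 was 2.03 (edgeR adjusted p = 0.00492). Reg3g stood at 0.46 (edgeR adjusted p = 0.0993) and at 1.78 among surface cells. Both were found in fewer of the Duoxa2/Ly6g colonocytes than of the comparison cells: Reg3b in 49.0% against 60.8% and 24.7% against 39.7%.

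Of 19 NF-kB targets and feedback genes, 12 rose and 3 fell (6 and 1 of 17 among surface cells). The A20-binding inhibitor Tnip3 rose from 14.4 to 182 CPM and from 16.8 to 144 CPM (log2 3.60, SE 0.17, edgeR adjusted p = 1.40e-06), and Zc3h12a, an RNase that degrades cytokine transcripts, rose by 1.89. Tnfaip3, Nfkbia, Nfkbiz, Bcl3 and Relb were among the other rises. Tnfaip2 (log2 -2.0) and Traf1 (-1.89) fell, with at most 7 UMIs of either in the Duoxa2/Ly6g colonocytes of a batch. Both calls were lost with DESeq2 (adjusted p = 0.170 and 0.216), where 10 genes of the list rose and 0 fell, and with at least 3 of 4 genes (edgeR adjusted p = 0.0957 and 0.138). Tnfaip2 passed again among surface cells (-3.36).

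Of 22 cytokine, receptor and JAK-STAT genes, 13 rose and 1 fell (10 and 0 of 17 among surface cells). Tnf rose from 2.38 to 22 CPM and from 3.87 to 22.1 CPM (log2 3.07, SE 0.27, edgeR adjusted p = 4.94e-05). Il1rn, the interleukin-1 receptor antagonist, rose from 25.7 to 130 CPM and from 34.2 to 134 CPM (2.37) and was found in 60.4% and 61.0% of the cells. Socs3, the feedback inhibitor of STAT3, rose by 2.42 (1.70 without batch 1). The oncostatin M receptor Osmr (4.33) rested on 31 and 6 UMIs against 2 and 7.

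Of 28 interferon response and MHC genes, 26 rose and 0 fell, with a median log2 of 1.46, against -0.07 over all genes. Among surface cells 7 rose and 1 fell, with a median of 0.58. The guanylate-binding protein Gbp2 rose from 17.0 to 359 CPM and from 41.4 to 209 CPM (log2 3.58, SE 0.39, edgeR adjusted p = 0.000166; 1.90 among surface cells). Ido1, which breaks down tryptophan, rose by 3.00 and was found in 16.1% and 9.09% of the cells. Ifit2 rose by 2.61 (1.81 without batch 1), and Gbp3 by 2.85 (1.55 without batch 1), a call lost among surface cells (1.23, edgeR adjusted p = 0.176). The class I and class II genes H2-K1, H2-D1, B2m, Cd74, H2-Aa, H2-Ab1 and H2-Eb1 were among the rises. The transactivator Nlrc5 did not pass (0.97, edgeR adjusted p = 0.0936).

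Of 20 wound and regeneration genes, 15 rose and 0 fell (12 and 1 among surface cells; 15 and 1 with library totals). Ly6a (Sca-1), often used as a marker of regenerating gut epithelium, rose from 336 to 3482 CPM and from 507 to 2702 CPM (log2 3.11, SE 0.21, edgeR adjusted p = 1.10e-05; 2.83 among surface cells). The urokinase receptor Plaur (3.40), the cornified envelope protein Sprr1a (3.39) and tissue factor (F3, 3.19) rose as well. Of 10 Ly6 family genes tested beside Ly6g, Ly6a, Ly6c1 and Ly6d included, 9 rose and 0 fell, with a median log2 of 1.83 (7 and 0 among surface cells). Ly6m was among them (65.9 to 729 CPM and 158 to 948 CPM; 3.23).

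**Figure D4:**
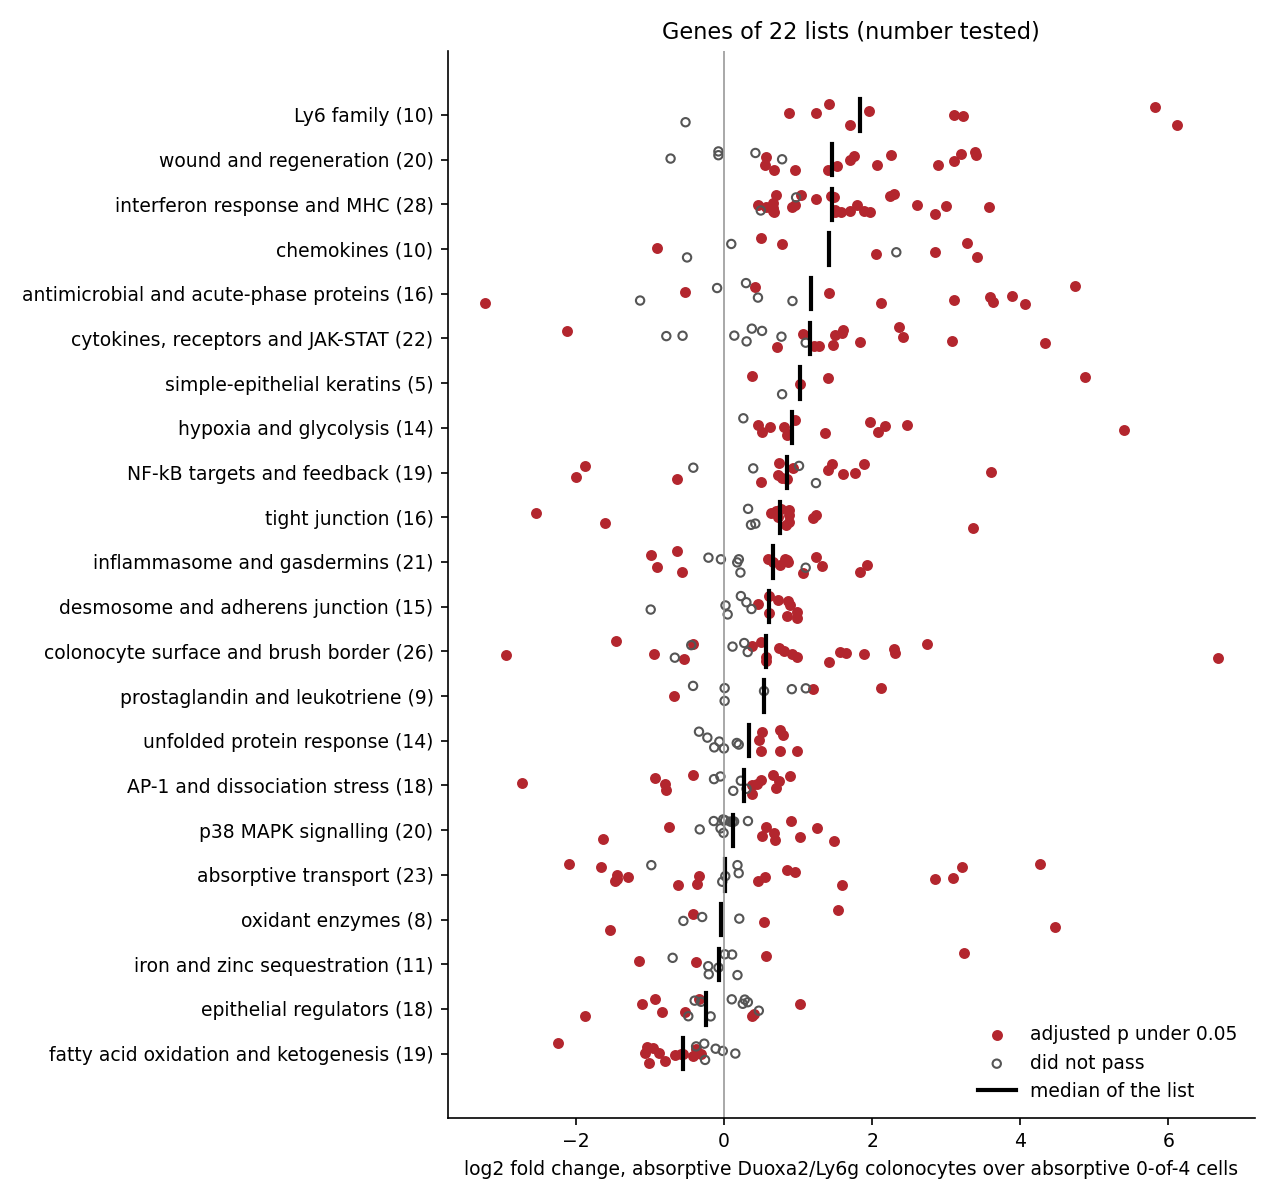
Log2 fold change of each tested gene (x axis) in 22 gene lists (y axis, number tested in brackets), absorptive Duoxa2/Ly6g colonocytes over absorptive cells with 0 of 4 genes; filled points passed the test and bars mark list medians. The interferon list lies to the right of 0 throughout (26 of 28 passed) and fatty acid oxidation to the left for 13 of 19 genes.

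Absorptive function split in both directions. Of 23 transport genes, 9 rose and 9 fell, and the median log2 was 0.02, or -0.20 with library totals (5 and 7 of 22 among surface cells). Car4, the surface carbonic anhydrase, rose from 437 to 3396 CPM and from 842 to 4160 CPM (log2 2.84). Fxyd4, a regulator of the sodium pump (3.21; 2.55 without batch 1), and the peptide transporter Slc15a1 (3.09) rose with it. The falls included the butyrate transporters Slc16a1 and Slc5a8, the chloride channel Cftr and the aquaporin Aqp4. Of 26 surface and brush border genes, 16 rose and 5 fell, Sprr2a3 (561 to 4079 CPM and 612 to 2823 CPM; 2.75) and Tgm3 (2.31) among the rises. Among surface cells 8 rose and 5 fell, in a list that still held Clca4a, which helped choose those cells. Against cells with exactly 1 rule gene, however, Tgm3 was at -0.13 (edgeR adjusted p = 0.571).

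Of 19 genes of fatty acid oxidation and ketogenesis, 0 rose and 13 fell, with a median log2 of -0.55 (0 and 8 among surface cells, median -0.43; 0 and 7 with DESeq2). Among the falls were the lipid-sensing receptor Ppara (35.8 to 6.28 CPM and 32.4 to 6.13 CPM; log2 -2.25, SE 0.20, edgeR adjusted p = 5.07e-05), the beta-oxidation enzyme Hadh (394 to 160 CPM and 366 to 153 CPM; -1.06) and the ketone enzyme Bdh1 (-1.05). Of 14 genes of hypoxia and glycolysis, 13 rose and 0 fell, with a median of 0.92 (9 and 0 among surface cells). Hif1a rose from 87.7 to 525 CPM and from 111 to 423 CPM (2.47), hexokinase 2 (Hk2) by 2.18 and the oxygen sensor Egln3 by 2.08. Pfkfb3, which drives glycolysis, had 109 and 15 UMIs against 11 and 4 (5.40), and Aldoa did not pass (0.26, edgeR adjusted p = 0.0766).

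The study's title names plakoglobin, p38 and the inflammasome. Jup itself did not pass (log2 0.37, SE 0.36, edgeR adjusted p = 0.471): it stood at 25.6 against 48.8 CPM in batch 1 and 92.8 against 42.7 CPM in batch 2, opposite ways in the 2 batches. Conditions are mixed in these sums, and 82.0% and 85.9% of the Duoxa2/Ly6g colonocytes carried no tag. Of 15 desmosome and adherens junction genes, 9 rose and 0 fell, among them Pkp3 (0.98), Dsg2 (0.98), Cdh1 (0.89) and Dsp (0.86). None of 13 passed among surface cells in either direction, where Dsg2 was at 0.43 (edgeR adjusted p = 0.0844).

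Of 16 tight junction genes, 11 rose and 2 fell (3 and 1 among surface cells). Cldn4 rose from 17.2 to 216 CPM and from 19.2 to 115 CPM (log2 3.35; 1.73 among surface cells), and the scaffold Tjp1 by 1.25 (0.54 among surface cells, edgeR adjusted p = 0.0529). The pore-forming claudins Cldn15 (-2.55) and Cldn2 (-1.62) fell. Cldn2 stood at -3.04 without batch 1, and its call was lost among surface cells (-0.58, edgeR adjusted p = 0.472). Of 5 further keratins, 4 rose (2 of 4 among surface cells): Krt7 (1.40), Krt18 (1.02), Krt19 (0.38) and Krt36, which had 67 and 4 UMIs against 10 and 2. The Krt19 call was lost with DESeq2 (adjusted p = 0.0857), with library totals (0.17, edgeR adjusted p = 0.236), without the batch term (edgeR adjusted p = 0.204), among surface cells (edgeR adjusted p = 0.159) and against cells with 1 rule gene (0.31, edgeR adjusted p = 0.074).

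Of 21 inflammasome and gasdermin genes, 11 rose and 4 fell (6 and 0 among surface cells). Casp4, the sensor of cytosolic lipopolysaccharide, rose from 38.2 to 119 CPM and from 44.6 to 155 CPM (log2 1.93, SE 0.12, edgeR adjusted p = 1.03e-05; 1.56 among surface cells), and the pore protein Gsdmd from 63.4 to 226 CPM and from 79.9 to 210 CPM (1.83; 1.32). Casp8 (1.32) and Il18 (1.06; 292 to 446 CPM and 262 to 557 CPM) rose too, although Il18 did not pass against cells with 1 rule gene (0.21, edgeR adjusted p = 0.225). Casp1 did not pass, at 210 against 199 CPM and 202 against 211 CPM (0.22, edgeR adjusted p = 0.159). The adaptor Pycard (-0.91) and the epithelial sensor Nlrp6 (-0.56) fell, calls that were lost among surface cells (-0.07 and -0.47), as was the rise of Nlrp9b (1.25 and 0.17). Il1b did not pass (1.10, edgeR adjusted p = 0.0834) and was at -0.0084 among surface cells, with 87.7% of its batch 2 UMIs in 1 cell. It did pass with at least 3 of 4 genes (2.23, edgeR adjusted p = 0.00799), without Ly6g in the rule (2.08, edgeR adjusted p = 0.00541), with comparison cells matched on depth (0.96, edgeR adjusted p = 0.0101) and without the expression filter (1.04, edgeR adjusted p = 9.12e-07).

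Of 20 p38 pathway genes, 8 rose and 2 fell (4 and 1 of 19 among surface cells), with a median log2 of 0.12 that was -0.09 with library totals. Mapk14, which encodes p38 alpha, rose by 0.69 (24.3 to 34.5 CPM and 30.7 to 42.1 CPM; edgeR adjusted p = 0.00553) but did not pass among surface cells (0.52, edgeR adjusted p = 0.0976), with DESeq2 (0.73, adjusted p = 0.0921) or against cells with 1 rule gene (0.35, edgeR adjusted p = 0.153). Its phosphatase Dusp10 (1.49) and its kinase Map2k3 (1.26) rose, neither passing among surface cells, and Map3k5 fell (-1.64). Atf3 rose by 1.02 and by 0.99 among surface cells. Of 18 genes of AP-1 and dissociation stress, 8 rose and 5 fell, or 3 and 6 with library totals (1 and 0 of 17 among surface cells). Hspa1b (-0.94) and Hsp90aa1 (-0.80) were among the falls and Ier3 (0.89) among the rises; Hspb1 also fell, with 1 and 7 UMIs against 257 and 78.

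Of 14 unfolded protein response genes, 7 rose and 0 fell, or 4 and 2 with library totals (6 and 0 among surface cells), with Herpud1 at 0.99, Xbp1 at 0.79, Creld2 at 0.76 and Hspa5 at 0.75. Of 9 prostaglandin and leukotriene genes, 2 rose, Ptges (2.11) and Slco2a1 (1.21), and Hpgd fell (-0.67), of which the fall alone passed among surface cells (-0.84); the Ptges call was also lost with DESeq2 (adjusted p = 0.101). Of 11 iron and zinc genes, the ferric reductase Steap4 rose from 5.16 to 40.6 CPM and from 1.97 to 17.2 CPM (3.24) and Slc39a4, a zinc transporter, by 0.57, while the transferrin receptor Tfrc (-1.15) and ferritin heavy chain Fth1 (-0.38) fell. Of these 4, Steap4 (3.05) alone passed again among surface cells, where 2 genes of the list rose and 1 fell, and the Fth1 call was also lost with DESeq2 (-0.34, adjusted p = 0.177). Of 18 epithelial regulators, 3 rose, Elf3 (1.02) among them, and 6 fell, including Hes1 (-1.11), Cebpb (-0.94) and Foxa2 (-1.87, 8 and 2 UMIs against 142 and 64); among surface cells 4 rose and 3 fell of 17.

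Conditions could be compared only through the tags, and 58 Duoxa2/Ly6g colonocytes carried exactly 1. As a share of gate cells with the tag, they were 0 of 38 in batch 1 and 2 of 36 in batch 2 for Ctrl_WT, where 0 of 38 allows a share of up to 7.89% by a limit of 3 counts (the upper Clopper-Pearson limit is 9.25%). For Ctrl_DSS they were 5 of 82 (6.10%) and 3 of 121 (2.48%), and for TG_WT 8 of 158 (5.06%) and 11 of 95 (11.6%). For TG_DSS they were 25 of 163 (15.3%, Clopper-Pearson 95% interval 10.2% to 21.8%) and 4 of 82 (4.88%, interval 1.34% to 12%). The mean of the 2 batches was lowest under Ctrl_WT (2.78% ± 3.93, SD, n = 2), followed by Ctrl_DSS (4.29% ± 2.56), then TG_WT (8.32% ± 4.61), with TG_DSS at 10.1% ± 7.40. TG_DSS was the highest tag in batch 1 and TG_WT in batch 2, so the order was not kept, and all 4 tags overlapped in range with their neighbours in order of the mean. The differences between tags were not tested. As a share of all cells with the tag the order changed, with the lowest mean under TG_DSS (0.911%) and the highest under TG_WT (1.35%). Untagged gate cells, the great majority, held 219 of 2166 (10.1%) and 134 of 1358 (9.87%). No tag had 20 of these cells in both batches, so their transcripts were not compared between conditions. Intervals and limits cover counting error only.

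**Figure D5:**
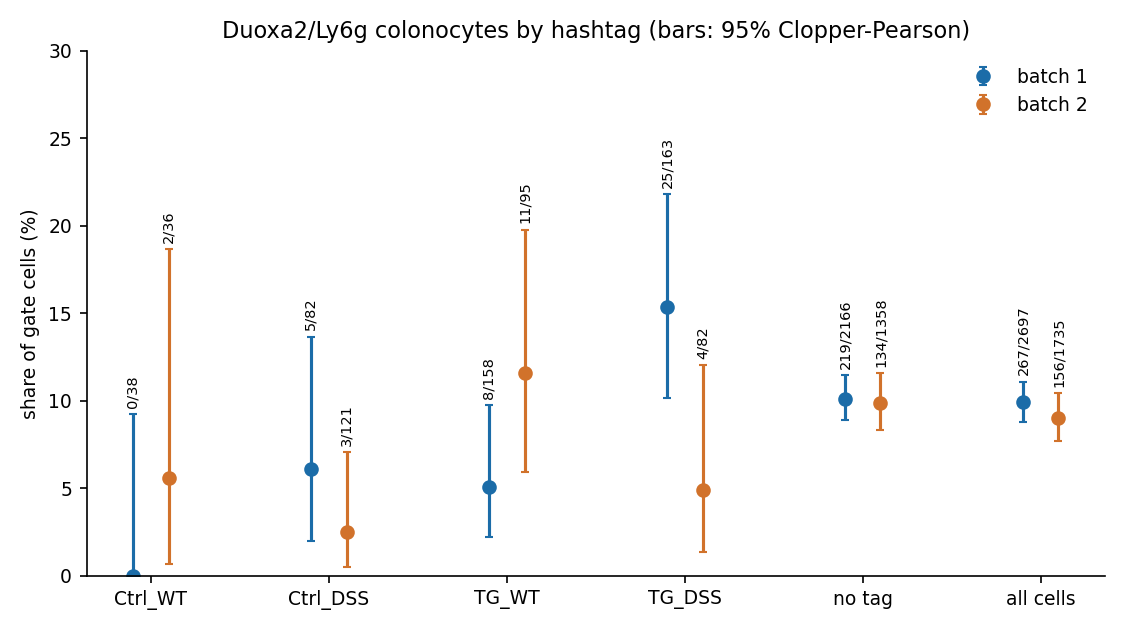
Share of gate cells that were Duoxa2/Ly6g colonocytes (y axis, %) by tag name (x axis), 1 point per batch with 95% Clopper-Pearson intervals and the counts above each. TG_DSS has the highest share in batch 1 (25 of 163) and TG_WT in batch 2 (11 of 95), and the untagged cells hold most of the cells.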

How the data were processed

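Gene expression and hashtag counts of 2 batches of mouse colon cells were used. The authors deposited unfiltered UMI counts (32285 genes, 4 antibody features, every barcode), made with Cell Ranger 7.0.0 on mm10, per the submitters' processing notes. Their annotation release is not given in those notes. The members and the gene lists were chosen with earlier results of these data known. Counts were summed per batch and group (3907965 and 2483588 UMIs in all Duoxa2/Ly6g colonocytes, before the expression filter). They were compared by the quasi-likelihood test of edgeR 4.0.16, run in R 4.3.3 (TMM, its expression filter, batch and group as terms, adjusted p under 0.05). SEs were derived from the test's F statistic. Both sums of a batch come from 1 library, so batch pairs them; their deviations correlated at 0.30 and 0.27 in the wider and the absorptive comparison. Genes named are the 12 largest changes each way (at least 50 CPM in the higher side of both batches, same sign in both), up to 4 that passed and 2 that did not per list, and study genes; some of these are not reported here. A tag was called per batch by a 2-component Gaussian mixture on log counts. Cells over more than 1 tag (10 and 2 of the Duoxa2/Ly6g colonocytes) stayed in the sums but not in the tag shares; no other doublet caller was run. On simulated counts with 50 genes per fold size, the absorptive comparison recovered 100% at a log2 of 2 and 88% at 1. It recovered 100% at -2 and 84% at -1. The changed genes were drawn from those above a minimum level in the comparison cells, at a fixed dispersion. They were far fewer than the genes called in the data. Recovery of sparse genes, or of genes with most UMIs in 1 cell, was not tested.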

Additional observations from a re-analysis of the deposited data

Results flagged for a closer look

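Cells with exactly 1 of the 4 genes were on neither side of the 2 main comparisons, served only as comparison cells in an added alternative, and carried signal above that of cells with 0. Clca4b stood at 60.1 CPM in batch 1 and 39.4 CPM in batch 2 (15.2 and 8.14 CPM with 0 genes), and Duox2 at 30.5 and 29.3 CPM (9.62 and 11.1 CPM with 0 genes). Barcodes of at most 100 UMIs held Clca4b at 68.8 and 29.0 CPM and Duox2 at 39.1 and 27.5 CPM. The part of free RNA in these levels was not tested.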

How the results depend on the processing

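The precision is limited by 2 batches and, for tags, by at most 25 cells per tag and batch. Under the alternatives, 1475 values of named genes of the absorptive comparison were labelled the same. A further 63 lost the call, 18 gained one, 5 reversed and 11 moved in size. Of the 1475, 104 without replicate 1 and 111 without replicate 2 have no test and so no call. These were labelled by size, within a limit set by the difference between the 2 batches. Most values meet that limit, and the drop of Cxcl3 without batch 1 was labelled the same. The calls lost with DESeq2 were those of Noxo1, Cxcl3, Tnfaip2, Traf1, Krt19, Mapk14, Nlrp6, Creld2, Ptges, Foxa2 and Fth1, and those lost without the replicate block were Krt19, Fth1, Hspa1b, Hsp90aa1, Hspb1, Pycard and Tnfaip2. In the wider comparison 271 were labelled the same (22 of them without replicate 1 and 22 without replicate 2, by size only), 2 lost the call and 2 moved. DESeq2 called 1537 genes higher and 758 lower in the wider comparison and 1127 and 527 in the absorptive one. Library totals without TMM gave 1518 higher and 3898 lower, and 3120 lower in the absorptive comparison. Without the replicate block that pairs the sums of a batch, 1193 and 1009 genes were lower (1673 and 1375 higher). With Aqp8 and Clca4a on both sides 672 genes were higher and 531 lower, and against cells with 1 of the 4 genes 1041 and 614, both added after seeing the data and both with fewer cells and genes. The values that reversed were Tgm3 (-0.13) and Fth1 (0.0418) against cells with 1 gene, Il1b among surface cells (-0.0084), and Ccl20 with at least 3 of 4 genes (0.84) or without Ly6g in the rule (0.68). The cause was not tested.

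The tag shares, as means over the batches, moved for Ctrl_DSS to 7.41% with the highest-tag rule, 0.968% of all cells with the tag, 0.424% in cells thinned to 2000 UMIs and 0.413% with at least 3 of 4 genes. For TG_WT they moved to 1.35%, 3.12% and 2.74% under the last 3, and for TG_DSS to 0.911% of all cells with the tag, where it was the lowest of the 4 means and TG_WT the highest. Within its wide spread TG_DSS was also lower in thinned cells (4.11%) and with at least 3 of 4 genes (3.98%), and Ctrl_WT was at 0% under both. In single batches the shares ranged from 0% to 5.56% for Ctrl_WT, 2.48% to 6.10% for Ctrl_DSS, 5.06% to 11.6% for TG_WT and 4.88% to 15.3% for TG_DSS. The highest-tag rule left few gate cells under the DSS names and under Ctrl_WT (9 in batch 1 and 28 in batch 2), but 143 and 102 under TG_WT. Its 7.41% for Ctrl_DSS rests on 2 of 18 cells in batch 1 and 1 of 27 in batch 2. For TG_DSS it left 1 of 9 and 1 of 15, against 25 of 163 and 4 of 82 in the main calls. The TG_DSS share was therefore not tested by that rule. With 1 batch left, a fold change has no test.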
